A study of Mus musculus with 6 samples.

Results

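The 8 genes described here encode the machinery that turns membrane-bound sterol regulatory element-binding proteins (SREBPs) into active transcription factors, together with Mlxipl, a glucose-responsive lipogenic factor. They were taken by symbol, as Insig1, Insig2, Scap, Srebf1, Srebf2, Mbtps1, Mbtps2 and Mlxipl, from a deposited table of 24532 genes, and all 8 passed the filter on low counts. The libraries came from gastrocnemius, a large calf muscle, of C57BL/6 mice aged 12 weeks. The 3 control mice carried floxed Usp21 alleles without Cre and are entered under genotype as Litter. The 3 knockout mice carried the same floxed alleles with Ckmm-Cre, a recombinase under the promoter of muscle creatine kinase, which acts in muscle fibres and leaves the other cells of the tissue with their alleles. Neither the deleted exons nor the parentage of the animals is labelled, and the p-values therefore reflect the spread between these 6 samples alone. RNA was taken from whole tissue, in which fewer cells of a type and less RNA per cell cannot be told apart.

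SREBPs are made as precursors anchored in the membrane of the endoplasmic reticulum (ER). The escort protein Scap carries them to the Golgi when sterols are low, and the proteases encoded by Mbtps1 (site-1) and Mbtps2 (site-2) cut them there and release the part that enters the nucleus. When sterols are plentiful, Insig1 or Insig2 holds Scap and its cargo in the ER. SREBP-1c from Srebf1 mainly drives fatty acid genes, is raised by insulin and feeding and by the oxysterol receptors LXR in muscle as in liver, and SREBP-2 from Srebf2 mainly drives sterol genes. Insig1 is itself an SREBP target, which makes its transcript a common readout of the pathway. These proteins are regulated largely by cleavage, which RNA counts do not measure.

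In knockout muscle, Insig1 had a log2 fold change of -0.78 and passed the test over all genes with edgeR, a call lost in 9 of 16 alternative settings. Srebf1 had a log2 fold change of -1.17, at 44.5% of the control mean, without passing that test. For the other 6 members the estimates lay between -0.18 (Srebf2) and 0.015 (Mbtps2), each with an interval that included 0. Of 124 tested genes in 9 lists around the pathway, 0 passed with edgeR. With p under 0.05 before adjustment, 13 (10.5%) lay higher and 8 (6.45%) lower, where the background was 6.56% and 5.07% of all genes. Of the 13 higher, 6 came from the list of 10 targets of ATF6, an ER factor that the site-1 and site-2 proteases also cut. Among the 124 genes, DESeq2 called 3 (2.42%, namely Foxo1, Irs2 and Mylip), near its background of 2.14%.

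Upstream sequence is given for Insig1 and Srebf1, whose groups lay farthest apart, and for Srebf2, the paralog of Srebf1, because SREBP genes and Insig1 are known to be controlled from such stretches. The sequences are RefSeq promoter windows, cut so that no annotated exon is included, and capitals mark matches to 4 motifs. These were a sterol element octamer (TCACCCCA), an LXR repeat (GGGTTA, 4 bases of any kind and CGG, spelled after the known elements of the mouse SREBP-1c promoter), an E-box (CACGTG) and the CCAAT box (CCAAT), each searched on both strands. The Srebf1 window precedes the start at 60210471, which lies 10156 bases downstream of the start at 60220627 and inside the gene, where the SREBP-1c form begins.
Insig1 (GRCm38.p6, chr5:28071162-28071362, plus strand): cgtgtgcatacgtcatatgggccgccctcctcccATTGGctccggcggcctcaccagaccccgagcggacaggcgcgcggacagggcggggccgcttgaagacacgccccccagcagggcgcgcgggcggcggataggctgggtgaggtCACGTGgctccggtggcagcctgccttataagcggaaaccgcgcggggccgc
Srebf1 (GRCm38.p6, chr11:60210472-60210721, minus strand): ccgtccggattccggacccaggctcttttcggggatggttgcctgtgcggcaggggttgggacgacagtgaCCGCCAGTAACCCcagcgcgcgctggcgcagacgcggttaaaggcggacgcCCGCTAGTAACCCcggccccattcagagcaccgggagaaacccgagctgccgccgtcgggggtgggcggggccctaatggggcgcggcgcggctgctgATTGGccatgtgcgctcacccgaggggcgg
Srebf2 (GRCm38.p6, chr15:82147019-82147180, plus strand): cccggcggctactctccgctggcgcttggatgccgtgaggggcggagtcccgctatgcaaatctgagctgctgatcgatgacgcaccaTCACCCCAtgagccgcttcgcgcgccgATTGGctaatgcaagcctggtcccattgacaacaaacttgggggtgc

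No marked matches overlapped one another. The Insig1 stretch held 1 E-box, 101 bases upstream of the RefSeq start, and 1 CCAAT box in reverse orientation. The Srebf1 stretch held 2 LXR repeats, 179 and 128 bases upstream of its start, and 1 reversed CCAAT box. The Srebf2 stretch held 1 sterol element octamer, 162 bases upstream, and 1 reversed CCAAT box. Only this exact octamer was searched, so sterol elements of another spelling would be left unmarked in each stretch. Over all 32851 RefSeq windows of 300 bases, 1.56% held the octamer, 0.125% the LXR repeat, 7.15% the E-box and 37.4% a CCAAT box. The GC box (GGGCGG), in 35.7% of windows, was searched as well and is not marked. The Srebf1 window was the 1 window of these with 2 or more LXR repeats. Since that motif was spelled after the known elements of this promoter, its matches here were given in advance and are no independent result. A match describes letters and is not a measured binding site.

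The genes lie apart in the genome (mm10, RefSeq GRCm38.p6). Insig1 (Entrez 231070; 28071412 to 28078662) and Mlxipl (58805; 135089890 to 135139768) are on chromosome 5, and Insig2 (72999; 121304353 to 121332662) is on chromosome 1. Srebf1 (20787; 60199084 to 60224186) is on chromosome 11, Srebf2 (20788; 82147269 to 82205379) on chromosome 15 and Scap (235623; 110333288 to 110384949) on chromosome 9. Mbtps1 (56453; 119508151 to 119558864) is on chromosome 8 and Mbtps2 (270669; 157547822 to 157598715) on chromosome X. Exons of Srebf1 overlap Rai1 on the opposite strand by 109 bases, and annotated exons of Mbtps2 overlap Yy2 on the same strand by 2867 bases, and how reads there were shared out is not visible in the counts. Srebf1 was counted over 2 deposited transcripts, so its start sites are not told apart.

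Compared per length, as FPKM (fragments per length and depth, computed by the authors), Mlxipl was the most abundant member in control muscle at 42.2 ± 9.28 FPKM (SD, n = 3). Srebf1 (26.1 ± 4.70 FPKM) and Insig2 (24.9 ± 0.568 FPKM) followed, and their ranges overlapped. Mbtps1 stood at 12.9 ± 0.690 FPKM, Insig1 at 6.63 ± 0.253 and Scap at 6.39 ± 0.479, the last pair overlapping. Srebf2 (4.31 ± 0.332 FPKM) and Mbtps2 (3.54 ± 0.445 FPKM) were lowest. The RNA of Insig2 was therefore above that of Insig1 in every library, and that of Srebf1 above that of Srebf2.

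In knockout muscle Mlxipl (37.8 ± 4.08 FPKM; SD, n = 3) and Insig2 (22.3 ± 1.84 FPKM) led. Mbtps1 stood next, at 11.2 ± 1.99 FPKM, almost level with Srebf1 at 11.2 ± 2.08 FPKM. Insig1 (3.67 ± 0.289 FPKM) stood below Scap (5.62 ± 0.831 FPKM), and its range overlapped that of Srebf2 (3.61 ± 0.477 FPKM), which in turn overlapped that of Mbtps2 (3.39 ± 0.151 FPKM).

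Srebf1, the gene of SREBP-1, stood at 95.7, 101 and 141 CPM in controls 1 to 3 and at 51.6, 41.6 and 56.8 CPM in knockouts 1 to 3 (CPM, counts scaled to library depth with TMM factors). All 3 knockout libraries lay below all 3 controls, and control 3 stood above the other controls. The controls averaged 112 ± 24.5 CPM (SD, n = 3), the knockout mean was 44.5% of that, and the log2 fold change, knockout minus control, was -1.17 (SE 0.18; 95% interval -1.58 to -0.75). It did not pass (edgeR adjusted p = 0.133), although it ranked 24 by p among 14109 genes. With DESeq2 it was called (adjusted p = 2.07e-07), where 2.14% of genes were called and 0.59% as lower. Without control 3 the value was -0.97 (edgeR adjusted p = 0.143).

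Srebf2, the gene of SREBP-2, stood at 18.2, 20.4 and 19.9 CPM in controls against 19.2, 15.8 and 16.4 CPM in knockouts. Knockouts 2 and 3 lay below every control, and knockout 1 lay within their range. Its log2 fold change was -0.18 (SE 0.10; 95% interval -0.42 to 0.059; edgeR adjusted p = 0.545), which leaves a range from 0.745 to 1.04 times the control level. It was -0.28 without knockout 1, the highest knockout, and -0.13 without knockout 2.

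Mlxipl encodes ChREBP, a carbohydrate-responsive factor that shares lipogenic targets with SREBP-1c and is not processed by Scap. It stood at 157, 176 and 122 CPM in controls against 137, 136 and 157 CPM in knockouts, so the groups overlapped fully. The log2 fold change was -0.083 (SE 0.14; 95% interval -0.41 to 0.25; edgeR adjusted p = 0.860). Control 3, the highest control for Srebf1, was the lowest for Mlxipl. Without control 2 the estimate turned to 0.032.

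**Figure D1:**
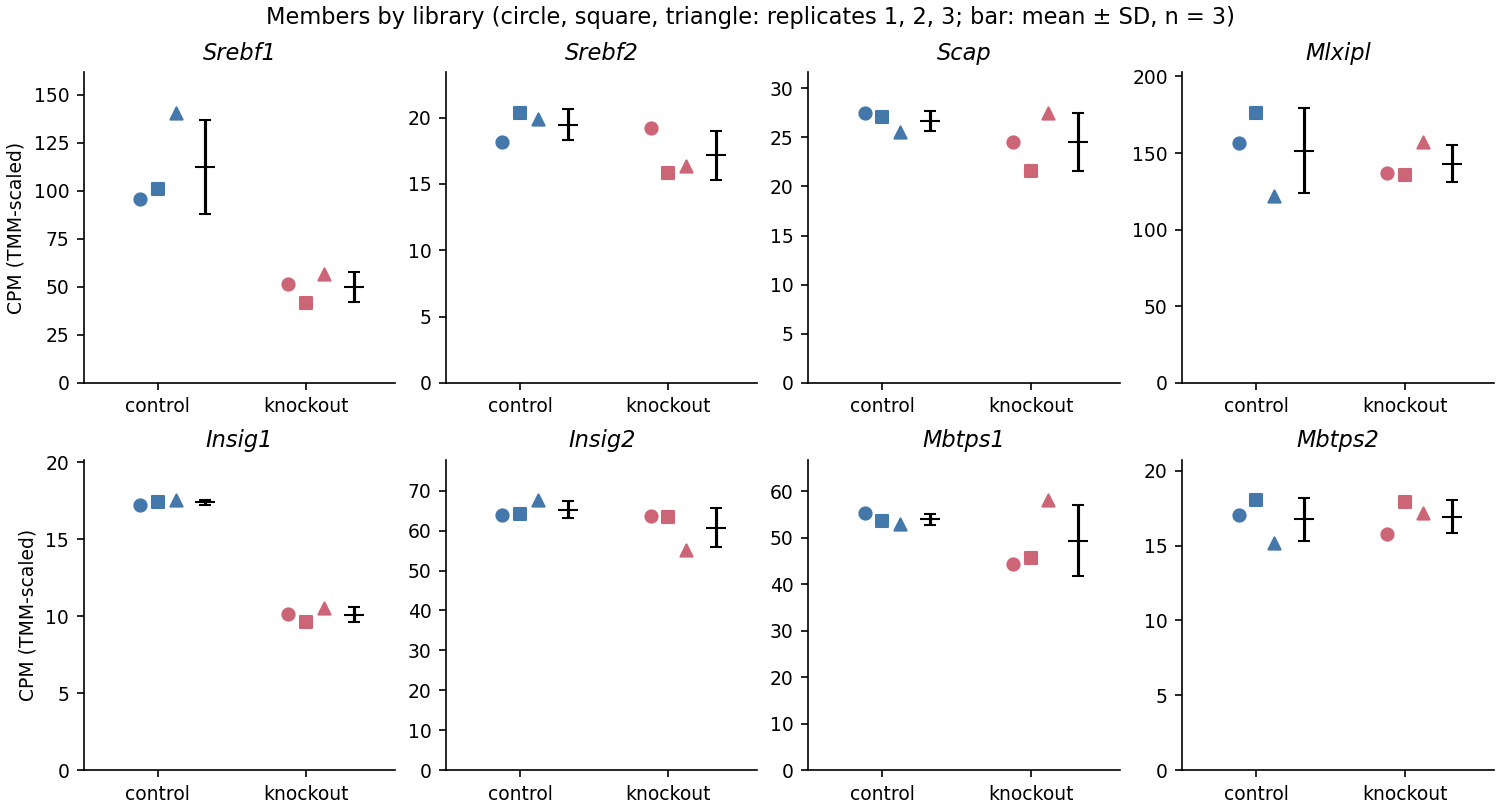
Level of each member in every library (y axis, CPM scaled by TMM factors, from 0) in control (blue) and knockout (red) muscle, with the mean ± SD of 3 libraries as a black bar. Insig1 and Srebf1 show groups far apart (17.2 to 17.5 against 9.63 to 10.6 CPM for Insig1), and Insig2 shows groups that only just fail to meet.

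Insig1, the retention protein that is itself an SREBP target, stood at 17.2, 17.4 and 17.5 CPM in controls against 10.1, 9.63 and 10.6 CPM in knockouts. The groups did not overlap. The spread between controls (coefficient of variation 0.997%) was below what counting alone gives at their depth (2.94% to 3.41%), and that of the knockouts (4.55%) was close to it (3.89% to 4.54%). Insig1 fell from 17.4 ± 0.173 to 10.1 ± 0.459 CPM (SD, n = 3 each), a log2 fold change of -0.78 (SE 0.083; 95% interval -0.98 to -0.59; edgeR adjusted p = 0.0421). The knockout mean was 58.1% of the control mean. It was the 1 member of 8 that passed, against a background of 0.0567% of genes passing in either direction and 0.0213% passing as lower.

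The size of the Insig1 change hardly moved when single libraries were left out (-0.82 to -0.75). Its call was lost without control 1 (edgeR adjusted p = 0.246), control 2 (0.160), control 3 (0.0961), knockout 1 (0.249) or knockout 2 (0.266), and kept without knockout 3 (0.0224). It was also lost in limma-voom (adjusted p = 0.0526; 0.0354% of genes called, 0.00709% as lower) and in limma on log2 of FPKM plus 1 (0.11) or plus 0.1 (0.101), while DESeq2 gave an adjusted p of 4.92e-10.

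Insig2, the isoform that is not an SREBP target, stood at 63.9, 64.1 and 67.7 CPM in controls against 63.7, 63.4 and 55.2 CPM in knockouts. The groups did not overlap in CPM, but knockout 1 and control 1 were almost level, and in FPKM the groups overlapped. The log2 fold change was -0.10 (SE 0.085; 95% interval -0.30 to 0.096; edgeR adjusted p = 0.678). Without knockout 3, the lowest library, it was -0.038. In all, 3 of 8 members (Insig1, Srebf1 and Insig2) had every knockout below every control, where the background was 8.87% of genes tested. At an unadjusted p under 0.05, 2 members were lower, where the background was 5.07% (11.6% in either direction).

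The ratio of Insig1 to Insig2 within a library does not depend on how libraries are scaled. On the FPKM scale it was 0.272, 0.275 and 0.254 in controls and 0.154, 0.154 and 0.188 in knockouts. The groups did not overlap. The log2 ratio differed by -0.68 in CPM and by -0.70 in FPKM (exact two-sided permutation p = 0.1 for each, the smallest that 3 against 3 libraries allow).

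The ratio of Srebf1 to Srebf2 was 5.57, 5.23 and 7.48 in controls and 2.84, 2.78 and 3.67 in knockouts on the FPKM scale. Here too all knockouts lay below all controls. The log2 ratio differed by -0.97 in CPM and in FPKM (exact two-sided permutation p = 0.1, again the smallest possible). So both pairs were less weighted to Insig1 and to Srebf1 in every knockout library, while Insig2 and Srebf2 RNA remained above and below their partners as in controls.

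**Figure D2:**
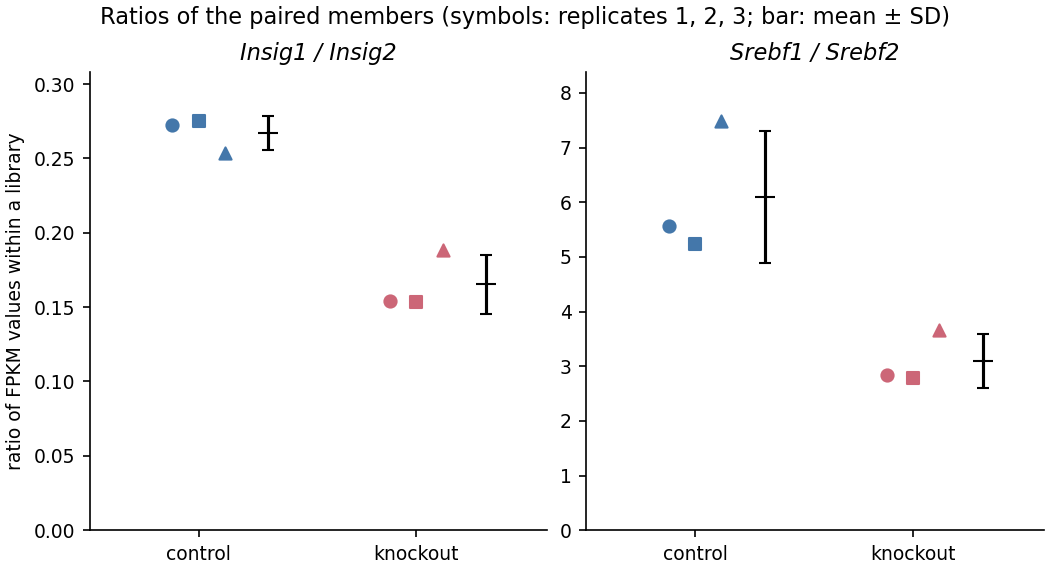
Ratio of FPKM values within each library (y axis, from 0) for Insig1 over Insig2 (left) and Srebf1 over Srebf2 (right), with the mean ± SD of 3 libraries as a black bar. The Insig ratio runs from 0.254 to 0.275 in controls and from 0.154 to 0.188 in knockouts, and the Srebf ratio from 5.23 to 7.48 and from 2.78 to 3.67.

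Scap, the sterol-sensing escort of both SREBPs, stood at 27.4, 27.1 and 25.5 CPM in controls against 24.6, 21.6 and 27.5 CPM in knockouts. Knockout 3 was the highest of the 6 libraries, and knockouts 1 and 2 lay below every control. The log2 fold change was -0.12 (SE 0.10; 95% interval -0.36 to 0.12; edgeR adjusted p = 0.688), and it was -0.21 without knockout 3 and -0.037 without knockout 2.

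Mbtps1, the site-1 protease that makes the first cut, stood at 55.3, 53.6 and 53.0 CPM in controls against 44.3, 45.6 and 58.2 CPM in knockouts. The libraries were placed as for Scap, with knockouts 1 and 2 below every control and knockout 3 above them all. The log2 fold change was -0.13 (SE 0.11; 95% interval -0.39 to 0.14; edgeR adjusted p = 0.698). It was -0.26 without knockout 3 (edgeR adjusted p = 0.171), -0.061 without knockout 1 and -0.076 without knockout 2.

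Mbtps2, the site-2 protease that cuts within the membrane, stood at 17.0, 18.05 and 15.2 CPM in controls against 15.8, 17.9 and 17.2 CPM in knockouts. The groups overlapped fully, and the log2 fold change was 0.015 (SE 0.099; 95% interval -0.22 to 0.25; edgeR adjusted p = 0.970). Its sign turned with the library left out (-0.051 without control 3, -0.027 without knockout 2) and with limma on log2 of FPKM plus 1 (-0.043). In that FPKM fit the median of all genes tested was -0.047. For the escort and both proteases, the intervals together run from 0.761 to 1.19 times the control level.

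**Figure D3:**
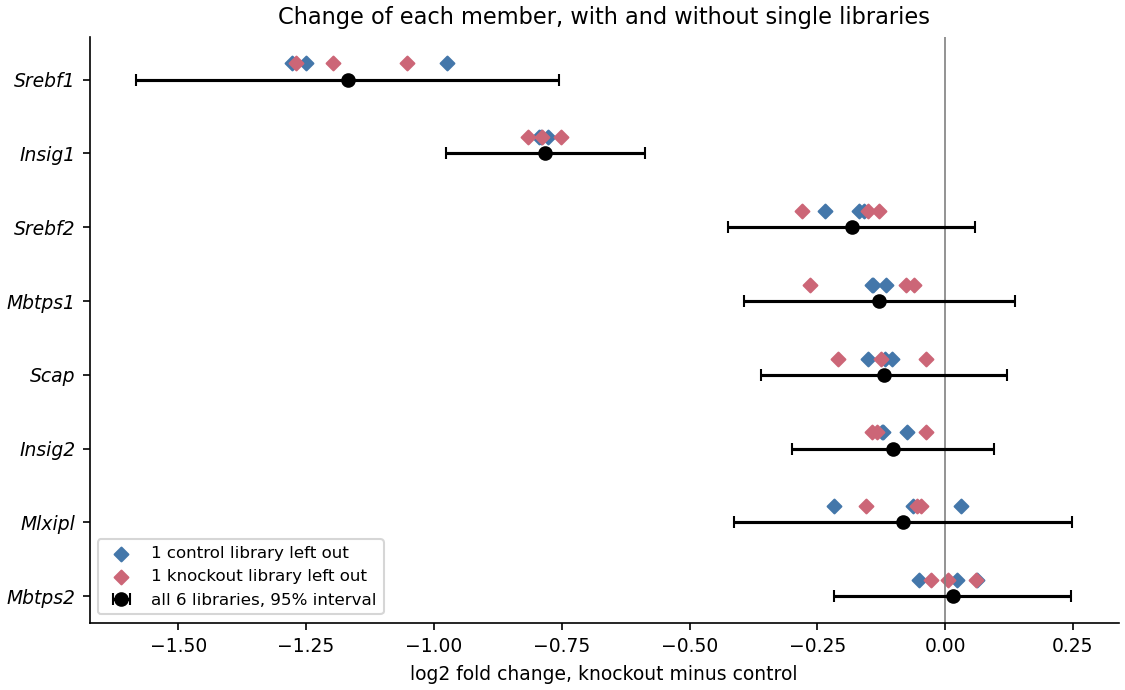
Log2 fold change of each member (x axis, knockout minus control), with its 95% interval over all 6 libraries in black and the estimates without 1 control (blue) or 1 knockout (red) library as diamonds. Srebf1 and Insig1 stay below 0 in all 6 such fits (-1.28 to -0.97 and -0.82 to -0.75), and the intervals of the other 6 members include 0.

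Patterns across libraries were compared with those of 12123 other genes by the root mean square difference in log2 CPM, each gene centred on its mean over the 6 libraries. Since the groups enter this measure, genes that are lower in knockouts are near by construction. The 5 nearest to Insig1 were Nos2 (0.066), Slc25a47 (0.097), Otub2 (0.11), Stat5b (0.11) and Rgma (0.11). Nos2, the inducible nitric oxide synthase, stood at 3.67, 3.74 and 3.51 CPM in controls against 2.04, 2.02 and 2.43 CPM in knockouts. Stat5b, a transcription factor activated by growth hormone, averaged 319 ± 16.7 CPM in controls against 209 ± 20.6 CPM in knockouts (SD, n = 3 each). None of these 5 passed over all genes (edgeR adjusted p = 0.133 to 0.241).

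The 5 nearest to Srebf1 were Otub2 (0.21), Sec14l5 (0.22), Usp21 (0.23), Has3 (0.24) and Cd247 (0.26). Otub2, a deubiquitinase of the OTU family, was near both and averaged 19.7 ± 1.80 and 11.2 ± 1.43 CPM (SD, n = 3 each; log2 fold change -0.81, edgeR adjusted p = 0.133). Sec14l5, a member of the SEC14-like family, passed (16.4 ± 0.991 CPM in controls against 8.41 ± 0.672 CPM in knockouts, SD, n = 3 each; log2 fold change -0.96, edgeR adjusted p = 0.0421), and Has3 and Cd247 did not (adjusted p = 0.201 and 0.241). Usp21 itself, the gene targeted, was lower in every knockout library, at 41.1% of the control mean (-1.28, SE 0.11; edgeR adjusted p = 0.0355).

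Genes that SREBP-1 is known to drive were not called. Of 21 genes of fatty acid and triglyceride synthesis tested, 0 passed with edgeR, 1 was lower and 0 higher at an unadjusted p under 0.05, and 18 had a negative estimate. Their median was -0.086, beside -0.0037 and 50.7% negative over all 14109 genes tested. It ran from -0.19 (without knockout 3) to -0.078 (without control 3).

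The gene with the smallest p among them was Scd2, a stearoyl-CoA desaturase, at 38.6, 56.6 and 51.7 CPM in controls against 32.1, 27.2 and 39.8 CPM in knockouts (log2 fold change -0.57, SE 0.18, edgeR adjusted p = 0.363). The next was Pnpla3, a lipid droplet protein and SREBP-1c target (-0.42, SE 0.19, adjusted p = 0.442). The groups overlapped for both. Named after their values were seen, Fasn, the fatty acid synthase, was at -0.27 (SE 0.27) and Acaca, the cytosolic acetyl-CoA carboxylase, at -0.21 (SE 0.14). Scd1, the main desaturase of adipose tissue and also named after its values were seen, stood at 135, 65.5 and 202 CPM in controls against 80.6, 177 and 67.2 CPM in knockouts, so the groups overlapped fully. The adipocyte marker Adipoq stood at 9.49, 5.20 and 21.3 CPM against 9.95, 28.7 and 7.58 CPM, so control 3 and knockout 2 were the highest libraries for both genes. The part of adipocytes in the Scd1 values was not tested.

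Sterol genes, which SREBP-2 mainly drives, were close to the rest of the transcriptome. Of 24 tested, 0 passed with edgeR, 1 was higher and 0 lower at an unadjusted p under 0.05, 15 had a negative estimate and the median was -0.034. The median turned to 0.030 without control 3 and was 5.4e-05 without knockout 3. Npc1, which exports cholesterol from lysosomes, stood at 104, 143 and 105 CPM in controls against 146, 191 and 164 CPM in knockouts (0.51, SE 0.15, edgeR adjusted p = 0.350). Stard4, a sterol carrier and SREBP-2 target, was at -0.40 (SE 0.20, adjusted p = 0.501).

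Hmgcs1, a synthase of the sterol pathway and an SREBP target named after its values were seen, was at -0.014 (SE 0.090).

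**Figure D4:**
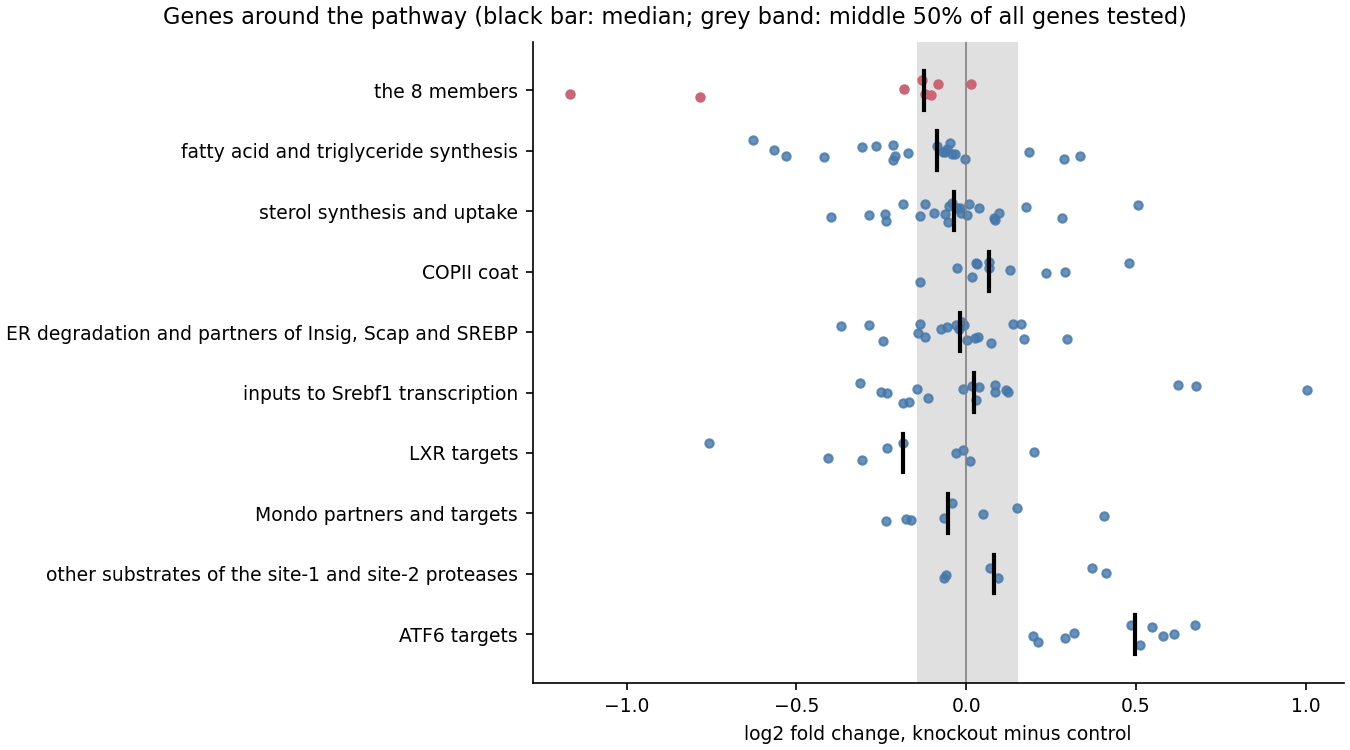
Log2 fold change (x axis, knockout minus control) of the tested genes of 9 lists around the pathway (blue) and of the 8 members (red), with the median of each as a black bar and the middle 50% of all genes tested (-0.14 to 0.15) as a grey band. The ATF6 target genes lie to the right (median 0.50) and the members Srebf1 and Insig1 to the left.

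The coat that carries Scap out of the ER, COPII, had 0 of 11 genes passing with edgeR, with 3 higher and 0 lower at an unadjusted p under 0.05, a median of 0.068 and 9 positive estimates. It was 0.030 when control 1 was left out and 0.096 when control 3 was, 0.036 without control 2, and it turned to -0.0025 with limma on log2 of FPKM plus 1 and -0.0027 with FPKM plus 0.1. In these FPKM fits the median of all genes tested was itself lower, at -0.047 and -0.070, against -0.0037 in the main fit. Sec24a, a cargo-binding subunit, averaged 40.1 ± 2.31 CPM in controls against 49.1 ± 2.13 CPM in knockouts, with no overlap (n = 3 each, SD; log2 fold change 0.29, SE 0.078, edgeR adjusted p = 0.312). Over all genes tested, 1183 of 14109 had every knockout above every control. Sec24d, another such subunit, was at 0.48 (SE 0.19, adjusted p = 0.408).

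Of 20 genes for the ER degradation and partners of Insig, Scap and SREBP, 0 passed with edgeR, 1 was higher and 2 were lower at an unadjusted p under 0.05, and the median was -0.017, moving to -0.048 without control 1, -0.042 without control 2 and -0.011 without control 3. Usp20, a deubiquitinase, averaged 13.3 ± 0.509 CPM in controls against 10.3 ± 0.931 CPM in knockouts (n = 3 each, SD; log2 fold change -0.37, SE 0.10, edgeR adjusted p = 0.319). Erlin1, an ER membrane protein that binds SREBP and Scap complexes, was at 0.30 (SE 0.095, adjusted p = 0.363).

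Among 18 genes that feed into Srebf1 transcription, 0 passed with edgeR, 2 were higher and 3 lower at an unadjusted p under 0.05, and the median was 0.024. The median turned below 0 without knockout 2 (-0.026), control 3 (-0.021) or knockout 3 (-0.016) and with limma on log2 of FPKM plus 1 (-0.045) or plus 0.1 (-0.048), and it was 0.0087 without control 2. Over all genes tested the median was -0.047 with FPKM plus 1 and -0.070 with FPKM plus 0.1. Foxo1, a factor that is active when insulin signalling is low and is known to repress Srebf1, stood at 67.0, 59.9 and 68.3 CPM in controls against 102, 91.4 and 118 CPM in knockouts. The groups did not overlap (0.68, SE 0.11, edgeR adjusted p = 0.167), and DESeq2 called the gene (adjusted p = 4.61e-05; 1.55% of genes were called as higher). Irs2, an adaptor of the insulin receptor and a known Foxo1 target, stood at 21.3, 25.2 and 15.0 CPM in controls against 50.4, 50.5 and 22.5 CPM in knockouts (1.00, SE 0.32, edgeR adjusted p = 0.363; DESeq2 adjusted p = 0.0406). Knockout 3 lay within the control range for Irs2.

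LXR receptors and their targets are given beside the repeats shown upstream of Srebf1, and any link between them was not tested. Nr1h2, the gene of LXR beta and named after its values were seen, stood at 54.4, 50.5 and 63.9 CPM in controls against 46.3, 42.4 and 47.1 CPM in knockouts (-0.31, SE 0.10, edgeR adjusted p = 0.363). Nr1h3, the gene of LXR alpha, stood at 20.5, 19.2 and 25.2 CPM and at 18.7, 17.4 and 19.0 CPM (-0.23, SE 0.12, adjusted p = 0.497). In both, every knockout lay below every control, as in 8.87% of all genes tested. The list of 9 LXR targets other than Srebf1 includes Nr1h3 and also Scd1, both described above. Of these 9 targets, 0 passed with edgeR, and 1 was lower and 0 higher at an unadjusted p under 0.05. A negative estimate was found for 7, beside 50.7% of all genes tested. The median of -0.19 ran from -0.27 (without control 1) to -0.016 (without knockout 2).

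Mylip, a ubiquitin ligase and LXR target, stood at 32.4, 33.4 and 31.0 CPM in controls against 16.4, 15.0 and 25.9 CPM in knockouts. The groups did not overlap, and knockout 3 lay nearest the controls (-0.76, SE 0.20, edgeR adjusted p = 0.305; DESeq2 adjusted p = 0.0190). Without knockout 3 Mylip passed with edgeR (-1.04, adjusted p = 0.0139; 0.146% of genes called as lower). Abca1 and Abcg1, the cholesterol exporters that LXR drives both picked here with their values in view, were at -0.19 (SE 0.31) and -0.0096 (SE 0.19).

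For the partners and targets of Mlxipl and its muscle relative Mlxip (MondoA), 0 of 8 tested genes passed with edgeR, 1 was lower and 0 higher at an unadjusted p under 0.05, and the median was -0.053. It ran from -0.17 without control 1 to 0.0092 without knockout 3, and was -0.13 without knockout 1, -0.082 without control 2 and -0.012 without control 3. Mlx, the obligate partner of both factors, averaged 13.5 ± 0.741 CPM in controls against 11.5 ± 0.976 CPM in knockouts (n = 3 each, SD; log2 fold change -0.24, SE 0.10, edgeR adjusted p = 0.424). Txnip, a glucose-induced target of both, stood at 583, 621 and 496 CPM in controls against 660, 593 and 1002 CPM in knockouts, with knockout 3 far above the rest (0.41, SE 0.20, adjusted p = 0.489).

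The proteases of Mbtps1 and Mbtps2 also cut ATF6 and related ER factors. Of 6 tested genes of such substrates 0 passed with edgeR, and 0 had an unadjusted p under 0.05, with a median of 0.081 (0.011 with limma on log2 of FPKM plus 1). The median of all genes tested in that limma fit was -0.047. Creb3l2 was at 0.37 (SE 0.18, edgeR adjusted p = 0.488) and Creb3l1 at 0.41 (SE 0.30, adjusted p = 0.641). Both are ER-anchored transcription factors of secretory cells.

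Genes that cleaved ATF6 turns on had all 10 estimates above 0, a median of 0.50, 6 higher and 0 lower at an unadjusted p under 0.05 (background 6.56% higher) and 0 passing with edgeR. Hspa5, the ER chaperone BiP, stood at 164, 151 and 140 CPM in controls against 262, 281 and 152 CPM in knockouts (0.61, SE 0.22, edgeR adjusted p = 0.372). Creld2, an ER stress-induced protein, stood at 7.38, 5.26 and 6.34 CPM and at 12.5, 11.3 and 6.43 CPM (0.67, SE 0.25, adjusted p = 0.385). In both, knockouts 1 and 2 were high and knockout 3 lay within the control range. Without knockout 3 the median was 0.75, and Hspa5, Hsp90b1, Pdia4 and Manf, ER chaperones or folding factors of this list, passed with edgeR (adjusted p = 0.0259 to 0.0313), where 0.982% of genes were called and 0.836% as higher. Without knockout 2 the median was 0.32.

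Markers of the tissue and of other cells were measured beside these genes. All 9 skeletal muscle markers passed the filter, and their summed level was 174701 to 213813 CPM in controls against 197998 to 229139 CPM in knockouts. Slow-fibre markers (8 of 8 tested) summed to 1418, 1378 and 165 CPM in controls 1 to 3 and to 1079, 764 and 1739 CPM in knockouts. Control 3, low in slow-fibre RNA, was the highest library for Srebf1 and lowest for Mlxipl, while Insig1 was level across the 3 controls. Adipocytes express Srebf1, Insig1 and Mlxipl strongly. Their 10 markers, all tested and with none at 0, summed to 2205 to 2860 CPM in controls against 2500 to 4502 CPM in knockouts, of which Car3, also a muscle gene, made up 86.2% to 89.0%. Without Car3 the sums were 256 to 395 CPM and 289 to 562 CPM, which overlapped. Of the 10 markers, 8 had positive estimates, beside 6956 of 14109 over all genes tested. At an unadjusted p under 0.05, Lipe was higher (0.30, SE 0.12) and Lep lower (-1.77, SE 0.59), where the background was 6.56% and 5.07%. Lep, the leptin gene, stood at 5.44, 1.51 and 7.87 CPM in controls against 1.79, 1.78 and 0.767 CPM in knockouts, so the groups overlapped (edgeR adjusted p = 0.363).

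Other markers overlapped between the groups in their sums. Schwann cell markers, from cells rich in sterol synthesis, ran from 131 to 310 CPM in controls against 111 to 400 CPM in knockouts. Those of endothelial cells ran from 270 to 348 and 281 to 308 CPM, of fibroblasts from 1490 to 2288 and 2237 to 2675 CPM, and of macrophages from 102 to 179 and 99.2 to 168 CPM. Fibroblast markers had 7 of 7 estimates above 0, beside 6956 of 14109 over all genes tested. At an unadjusted p under 0.05, 3 of them were higher, where the background was 6.56%. No marker of any list was at 0 in all 6 libraries. The part of any of these cells in the results was not tested.

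Total counts were 48658436 to 67332846 per library, and the members had between 486 (Insig1, knockout 2) and 11417 (Mlxipl, control 2) counts in a library.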

How the data were processed

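Poly(A)-selected, stranded RNA libraries from 6 mice (3 control, 3 knockout) were analysed. Read counts per gene were deposited unnormalized, per the file headers. The authors deposited FPKM and TPM beside them, per the file headers. Tools named, per the submitters' processing notes, were StringTie 1.3.4d, Bowtie2 2.3.4.1, bcl2fastq 2.20.0 and FastQC 0.11.7, with the build mm10 and no roles given. No source used here gives the counter or whether it used strand.

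Counts were tested over all 14109 genes kept by filterByExpr (minimum count 10) with edgeR 4.0.16 in R 4.3.3: TMM scaling, quasi-likelihood test, Benjamini-Hochberg threshold 0.05. Standard errors came from the F statistic, and intervals are 95%. Log2 CPM used a prior count of 2. Ratios were tested by exact permutation. The fit was tested on simulated data. Alternatives were DESeq2 1.42.0, limma 3.58.1 (voom, or log2 of FPKM plus 1 or 0.1), other scalings and filters, a replicate block, a threshold of 0.10 and single libraries left out. TPM served to check the order of levels.

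The members and lists were chosen with earlier results of these data known. The text names all 8 members, Usp21, of each pathway list the genes past the threshold or else the 2 with the smallest p, and the 5 genes nearest in pattern to Insig1 and Srebf1; others are said to be named after their values were seen. Promoter windows came from RefSeq (GRCm38.p6), with all 8 members matched. Some genes of the lists are counted but not reported here by name.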

Additional observations from a re-analysis of the deposited data

How the results depend on the processing

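The count of members called was 1 with DESeq2's or upper-quartile scaling, no filter, a filter of 1 CPM and a threshold of 0.10. It was 2 with DESeq2's Wald test (Insig1 and Srebf1) and 0 with limma-voom, with log2 of FPKM plus 1 or plus 0.1 and with the replicate block, each with 2 lower at an unadjusted p under 0.05. Of all 14109 genes, 710 were lower at that p with limma-voom and 453 with the replicate block. With FPKM plus 1 or plus 0.1 the background was larger, at 1409 and 1420 genes. Without single libraries it ran from 0 to 1. Over all genes the count was 8; it was 290 with DESeq2, 5 with limma-voom, 1 with FPKM plus 1, 1 with FPKM plus 0.1, and 1 to 141 without single libraries, the highest without knockout 3. In the pathway lists it was 3 of 124 with DESeq2 (Foxo1, Irs2, Mylip), or 2.42% beside 2.14% of all genes. It was 0 to 5 without single libraries. The 5 arose without knockout 3, where 0.982% of all genes were called. They were Mylip and the ATF6 targets Hspa5, Hsp90b1, Pdia4 and Manf.

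The labels number replicates 1 to 3 in both groups without saying that numbers pair animals, so no pairing was used. Deviations from the group mean correlated across genes at -0.0082, -0.19 and -0.098 for same-numbered libraries. For other-numbered libraries the values ran from -0.084 to 0.18. Deviations within a group sum to 0, so these values depend on one another and cannot show whether animals were paired. The replicate block in edgeR called 0 of all genes (1164 at an unadjusted p under 0.05). Insig1 was then at -0.78 (edgeR adjusted p = 0.275) and Srebf1 at -1.16 (edgeR adjusted p = 0.275). The paired log2 ratios were -0.68 for Insig1 to Insig2 and -0.97 for Srebf1 to Srebf2 (exact sign-flip permutation p = 0.25, the smallest for 3 pairs).

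Mbtps2 changed sign with FPKM plus 1 (-0.043), with FPKM plus 0.1 (-0.053) and among the fits without single libraries (-0.051 to 0.063), as did Mlxipl among the latter (-0.22 to 0.032). The median log2 fold change of all genes tested was -0.047 with FPKM plus 1 and -0.070 with FPKM plus 0.1, against -0.0037 in the main fit. Without single libraries the ratio differences ran from -0.78 to -0.61 and from -1.10 to -0.81, and between 0 and 4 places changed in the order of FPKM levels; none changed with TPM.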
